A study of Mus musculus with 6 samples.

Results

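Macrophage lipid handling genes were examined in infarcted mouse heart, as a set of 10 genes chosen by name for lipid uptake, storage and efflux: Msr1, Fabp4, Fabp5, Soat1, Plin2, Abca1, Abcg1, Apoe, Nr1h3 and Pparg. All 10 were found among the 36047 genes joined to the transcripts, and all 10 passed the filter on low counts, which left 20094 genes. The tissue was the infarct area of hearts from C57BL6 mice aged 12 weeks, female by the study's methods, taken 48 h after ischemia/reperfusion (I/R) injury. In this procedure the left anterior descending artery is closed and then reopened. After surgery, mice received LGK-974 by daily oral gavage or its DMSO vehicle in the same citrate buffer. By the study's account 3 mice of each group were used for sequencing, which gives 1 library per mouse. LGK-974 inhibits Porcupine, the enzyme that lipidates Wnt proteins for secretion, and it was given to the whole animal. Both groups had the same injury, and no uninjured or untreated heart was analysed here. The study asked how blocking Wnt secretion alters the response in the infarct.

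Macrophages that clear dead cells take up membrane lipid and cholesterol. Scavenger receptors bring in modified lipoproteins, fatty acid binding proteins carry fatty acids in the cytoplasm, and surplus cholesterol is esterified and kept in lipid droplets. Oxysterols activate the liver X receptors, which induce the transporters Abca1 and Abcg1 and the lipoprotein component Apoe, and these pass cholesterol out of the cell. None of the 10 genes is exclusive to macrophages: Fabp4 is known from adipocytes and capillary endothelium, Pparg from adipocytes, and Plin2 and Abca1 from many cell types.

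Sequences are shown for a promoter of an efflux gene and for the exon by which the long form of Pparg is recognised. RefSeq promoters (GRCm38.p6) were matched by symbol for 6 of the 10 genes, with 11 entries, namely for Apoe, Abca1, Plin2, Nr1h3, Pparg and Soat1. The 250 bases before the start of each were searched on both strands for the liver X receptor element DR4, a direct repeat of AGGTCA with any 4 bases between the copies. No entry of the 10 genes held it exactly, while 0.0152% of all 32851 promoter entries of that length did. The closest was in the promoter of Abca1, on the minus strand of the gene's direction, between 67 and 52 bases before the start, where 3 of the 12 fixed letters differed. A window with at most 3 differences was present in 18.5% of all promoter entries. The 250 bases before the start of Abca1, at chr4:53159896-53160145 on the minus strand, are given 5′ to 3′ with this window in capitals, because Abca1 is the efflux gene that the liver X receptors are best known to induce:
Abca1 promoter: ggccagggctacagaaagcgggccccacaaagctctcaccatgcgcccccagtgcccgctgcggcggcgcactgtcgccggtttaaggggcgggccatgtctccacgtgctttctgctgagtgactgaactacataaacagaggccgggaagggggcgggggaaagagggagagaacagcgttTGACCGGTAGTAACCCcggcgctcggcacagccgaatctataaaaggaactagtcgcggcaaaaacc

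The shorter element of the peroxisome proliferator-activated receptors, DR1, a direct repeat of AGGTCA with 1 base between, came closest in the promoter of Plin2, with 2 of 12 fixed letters different, which held for 3.24% of all promoter entries. These matches describe letters only.

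Pparg has a long coding form, which adipocytes are known for, and a shorter form found in macrophages and other cells. In the GRCm38 annotation (GENCODE) the long form has 1515 coding bases and the shorter one 1425, and the sequence of the shorter one is the end of the longer. The 82 coding bases of the first exon of the long form, on chromosome 6 from 115422111 to 115422192 on the plus strand, occur in the long form alone among these coding sequences:
Pparg long form, first coding exon: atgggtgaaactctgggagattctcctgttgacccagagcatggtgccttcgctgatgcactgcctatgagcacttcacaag

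The libraries held 41579787 to 80398211 estimated counts, and the 10 genes held between 234 (Pparg) and 27495 (Apoe) counts in a library. The mitochondrial share of the counts was 28.2 to 53.7% in the LGK-974 libraries and 39.3 to 42.8% in the DMSO libraries. DMSO replicate 1 stood apart: 98.1% of 2013 olfactory, vomeronasal and bitter taste receptor genes, which heart is not known to use, had counts in it, against 48.0 to 79.5% in the other libraries. Its correlations of log2 CPM with other libraries were 0.841 to 0.925, against 0.923 to 0.966 among the others. It had the lowest level of all 6 libraries for 7 of the 10 genes, and the share of all genes for which this held was not computed. The tissue label was borne out by cardiomyocyte markers, all 12 of which were tested, with a summed level of 21244 to 37266 CPM.

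Levels are given in CPM, counts scaled to a common library size that was adjusted by the TMM method, and compare one gene between libraries. Between genes, the authors' TPM values, which account for transcript length, were summed per gene. By mean TPM over the 6 libraries the order was Apoe (342), Fabp4 (282), Plin2 (32.7), Fabp5 (24.7), Msr1 (19.4), Soat1 (17.5), Abcg1 (8.46), Nr1h3 (7.65), Pparg (7.38) and Abca1 (5.32). Apoe lay above Fabp4 in 4 of 6 libraries, so the order of these 2 genes was not fixed. Fabp4 was above Plin2, Soat1 above Abcg1 and Pparg above Abca1 in all 6 libraries. Msr1 lay above Soat1, Abcg1 above Nr1h3 and Nr1h3 above Pparg in 3 of 6 each, so these neighbours did not differ beyond their spread. Abca1 was last on this scale although it had more CPM than Soat1 on average, since its main transcript is 10262 bases long. Its place below Pparg rests on short transcripts in the Pparg sum. One of 213 bases, which keeps an intron, was at 0 to 3.71 TPM with at most 9.64 counts in a library. The main Abca1 transcript, at 2.06 to 9.24 TPM, exceeded the Pparg coding transcript of 2125 bases, at 0.780 to 3.99 TPM, in all 6 libraries. It also exceeded the longest Abcg1 transcript, of 5832 bases, at 0.566 to 3.83 TPM, in all 6. Short transcripts entered the sums of other genes too, so the order holds for gene sums only.

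The scavenger receptor Msr1 and the fatty acid carrier Fabp5 were about 2 times as high in the infarcts of LGK-974 treated mice as in controls, and Soat1, which esterifies cholesterol, was 1.63 times as high. Apoe and Abca1 were higher by 1.33 and 1.34 times. In these 5 genes the groups did not overlap, all in the higher direction, where this held for 10.7% of all genes tested (and 7.27% in the lower direction). In the other 5 genes the groups overlapped. By edgeR, with p-values adjusted over all genes tested by Benjamini and Hochberg's method, 0 of the 10 genes had an adjusted p under 0.05, as was so for 0% of all genes. At an unadjusted p under 0.05 there were 3 genes, Msr1, Fabp5 and Soat1, all higher, against 6.26% of all genes that were higher and 13.4% in either direction. Without DMSO replicate 1, 4 of the 10 were higher at an unadjusted p under 0.05, against 7.12% of all genes in that fit, and 0 passed by adjusted p, against 0.0108%. DESeq2, the program of the study, gave 2 of the 10 an adjusted p under 0.05, Msr1 and Fabp5, both higher, against 1.23% of its genes in either direction and 0.853% that were higher. Without a filter on low counts edgeR gave the same 2 genes, against 3.52%. With the replicate number as a block it gave 4 by unadjusted p, against 16.5%, and 0 by adjusted p, against 0%. limma-voom gave 0 by adjusted p, against 0% of all genes, and 5 by unadjusted p (Msr1, Fabp5, Soat1, Apoe and Abca1), against 9.70%. The same 5 genes passed by unadjusted p with edgeR when genes were filtered on a mean CPM of at least 1, against 16.0% of all genes in that fit. Expressed as log2 of LGK-974 over DMSO, the fold change was above 0 in 9 of the 10, with a median of 0.42, while it was above 0 in 40.5% of all genes, with a median of −0.13.

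**Figure D1:**
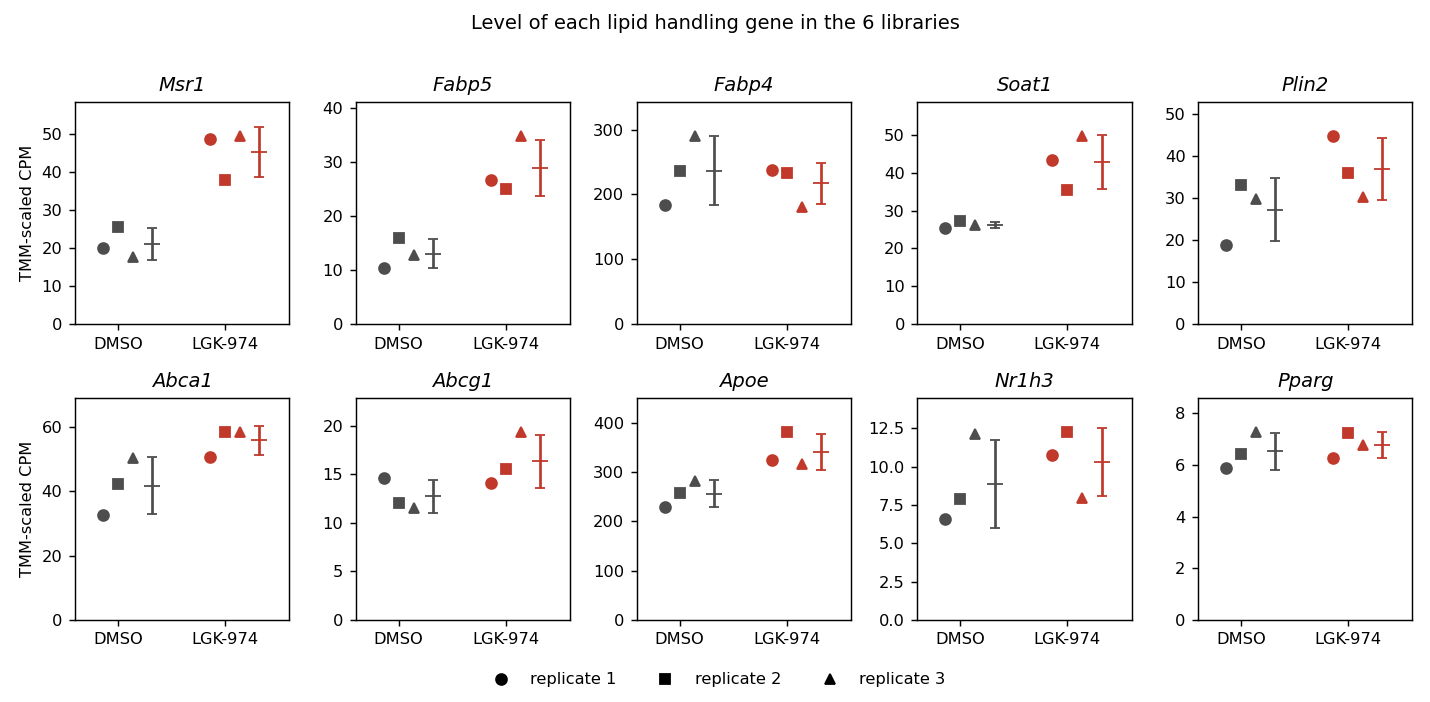
Level of each of the 10 genes in TMM-scaled CPM (vertical axis, from 0) in the 3 DMSO libraries and the 3 LGK-974 libraries, with symbols for the replicate numbers and the mean ± SD of each group beside the points. All LGK-974 points lie above all DMSO points for Msr1, Fabp5, Soat1, Abca1 and Apoe, and the groups overlap for Fabp4, Plin2, Abcg1, Nr1h3 and Pparg.

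Msr1 encodes the macrophage scavenger receptor A, a trimeric surface receptor that takes up modified lipoproteins, and lies on chromosome 8 from 39581685 to 39642673 on the minus strand (GRCm38). Its level was 48.8, 37.9 and 49.6 CPM in LGK-974 replicates 1, 2 and 3, and 20.03, 25.7 and 17.6 CPM in DMSO replicates 1, 2 and 3. The lowest LGK-974 library was thus well above the highest DMSO library. The means were 45.4 ± 6.54 and 21.1 ± 4.18 CPM (± SD, n = 3 libraries per group), with a fold change of 1.11 on the log2 scale (standard error, SE, 0.196, unadjusted p = 5.46e-04, adjusted p = 0.368 by edgeR). DESeq2 gave an adjusted p of 0.00182. With single libraries left out, the log2 value stayed between 1.04 and 1.29, and it was 1.09 without DMSO replicate 1.

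Msr1 has a type I form, whose last exons encode a scavenger receptor cysteine-rich domain, and a type II form that ends before it. Their annotated coding sequences, of 1374 and 1062 bases, are identical over the first 1054 bases. The type II transcript was at 10.9, 6.22 and 16.3 TPM in the LGK-974 libraries and 2.71, 5.34 and 4.07 TPM in the DMSO libraries. The type I transcript was at 2.79, 2.64 and 12.5 TPM with LGK-974 and 1.55, 2.62 and 0.935 TPM with DMSO. In TPM, both were thus higher in each LGK-974 library than in each DMSO library, and type II exceeded type I in all 6. TPM values are not adjusted by the TMM method. The single forms were not compared in TMM-scaled CPM, so a lack of overlap on that scale is not shown. The gap for type I between LGK-974 replicate 2 and DMSO replicate 2 was small, and these transcript values rest on how Kallisto divided reads between overlapping forms.

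Fabp5, the epidermal-type fatty acid binding protein that macrophages also make, lies on chromosome 3 from 10012548 to 10016607 on the plus strand. Its level was 26.7, 25.1 and 34.9 CPM under LGK-974 and 10.5, 15.9 and 12.8 CPM under DMSO. Every LGK-974 library was above every DMSO library, and LGK-974 replicate 3 was the highest of all. The means were 28.9 ± 5.24 and 13.1 ± 2.74 CPM (± SD, n = 3 libraries per group), with a fold change of 1.14 on the log2 scale (SE 0.210, unadjusted p = 6.92e-04, adjusted p = 0.368 by edgeR, and 0.00504 by DESeq2). It was 1.02 to 1.30 with each library left out in turn, the lowest without DMSO replicate 1.

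Part of the Fabp5 counts was assigned to a transcript that keeps an intron and codes for no protein. This share was 44.2, 25.4 and 18.6% in DMSO replicates 1, 2 and 3 and 10.5, 11.7 and 14.7% in LGK-974 replicates 1, 2 and 3. The share did not overlap between groups, which was not particular to Fabp5. For Abcg1 it was 6.88 to 10.02% with LGK-974 and 10.12 to 14.9% with DMSO, and for Soat1 5.13 to 8.43% and 8.48 to 10.6%. How often this holds over all genes was not computed. On counts without any retained-intron transcripts, Fabp5 was at 25.8 ± 4.004 CPM with LGK-974 and 9.81 ± 2.97 CPM for DMSO (± SD, n = 3 libraries per group), with a fold change of 1.39 on the log2 scale (SE 0.253, adjusted p = 0.317 by edgeR). Of the 8 genes of the set with such a transcript, 4 had their highest share in DMSO replicate 1 (Fabp5, Msr1, Abcg1 and Pparg). The part of intronic reads in the levels of these genes was not tested beyond this.

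**Figure D2:**
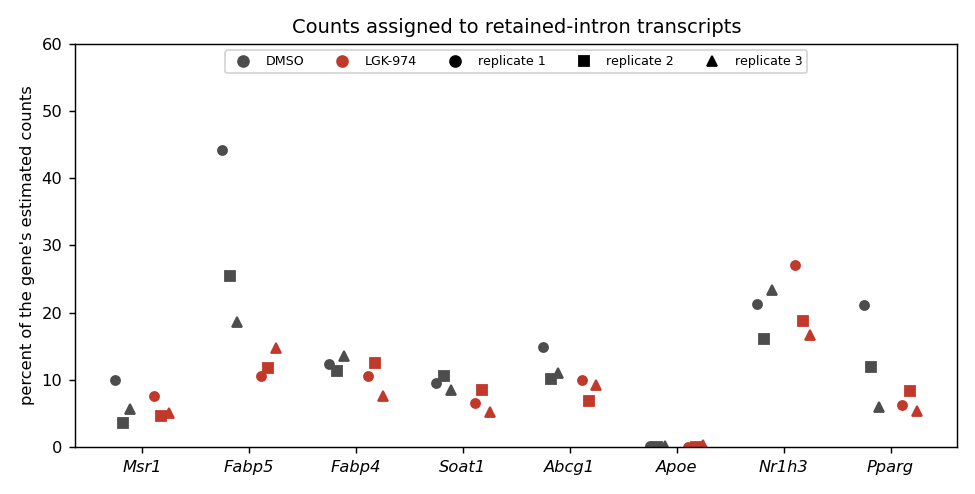
Share of a gene's estimated counts that was assigned to retained-intron transcripts (vertical axis, percent, from 0) in each library, for the 8 genes that have such a transcript. Fabp5 reached 44.2% in DMSO replicate 1 and was at 10.5 to 14.7% in the LGK-974 libraries.

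Fabp4, the fatty acid binding protein of adipocytes, capillary endothelium and some macrophages, lies near Fabp5 on chromosome 3, from 10204088 to 10208576 on the minus strand. Its level was 238, 233 and 180 CPM under LGK-974 and 184, 235 and 290 CPM under DMSO. The groups overlapped, and the lowest and the highest value were those of LGK-974 replicate 3 and DMSO replicate 3. The means were 217 ± 32.0 and 236 ± 53.1 CPM (± SD, n = 3 libraries per group). The log2 fold change of −0.12 (SE 0.228, adjusted p = 0.799 by edgeR) was smaller than the spread between libraries, and it became 0.04 with library size as the only scaling. It lay between −0.26 and 0.16 when libraries were left out in turn.

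Among the storage genes, Soat1 encodes the acyltransferase that makes cholesterol esters and lies on chromosome 1 from 156424525 to 156474331 on the minus strand. Its level was 43.3, 35.4 and 49.7 CPM with LGK-974 and 25.5, 27.2 and 26.1 CPM with DMSO. The DMSO libraries were tightly grouped and all below the LGK-974 libraries. The means were 42.8 ± 7.18 and 26.3 ± 0.860 CPM (± SD, n = 3 libraries per group), with a fold change of 0.71 on the log2 scale (SE 0.165, unadjusted p = 0.00288, adjusted p = 0.368 by edgeR). DESeq2's adjusted p was 0.0501. The log2 fold change was 0.70 without DMSO replicate 1 and 0.66 to 0.89 over all libraries left out in turn.

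Plin2 encodes the protein that coats lipid droplets in most cells that are not adipocytes, and lies on chromosome 4 from 86648386 to 86670060 on the minus strand. Its level was 44.7, 35.9 and 30.1 CPM with LGK-974 and 18.7, 33.1 and 29.7 CPM with DMSO. DMSO replicate 1 was far below the rest, and DMSO replicate 2 lay above LGK-974 replicate 3. The log2 fold change was 0.44 (SE 0.247, adjusted p = 0.412 by edgeR), and 0.25 without DMSO replicate 1, which was the lowest of the fits with one library left out.

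Of the efflux genes, Abca1, which loads cholesterol onto lipid-poor apolipoprotein A-I, lies on chromosome 4 from 53030787 to 53159895 on the minus strand. Its level was 50.6, 58.3 and 58.6 CPM with LGK-974 and 32.6, 42.4 and 50.3 CPM with DMSO. The groups did not overlap, but LGK-974 replicate 1 and DMSO replicate 3 were almost equal. The means were 55.9 ± 4.54 and 41.8 ± 8.84 CPM (± SD, n = 3 libraries per group), with a fold change of 0.42 on the log2 scale (SE 0.191, unadjusted p = 0.0606, adjusted p = 0.369 by edgeR). Without DMSO replicate 1 it was 0.28, and without DMSO replicate 3 it was 0.68. For the second cholesterol transporter, Abcg1, on chromosome 17 from 31057675 to 31117988 on the plus strand, the levels were 14.0, 15.5 and 19.4 CPM with LGK-974 and 14.7, 12.1 and 11.5 CPM with DMSO. DMSO replicate 1 lay above LGK-974 replicate 1. The log2 fold change was 0.36 (SE 0.187, adjusted p = 0.392 by edgeR) and 0.48 without DMSO replicate 1, where its unadjusted p by edgeR was 0.0249.

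Apoe, the apolipoprotein that macrophages secrete with effluxed cholesterol, lies on chromosome 7 from 19696109 to 19699188 on the minus strand and was the most abundant gene of the set in CPM. Its level was 324, 382 and 316 CPM with LGK-974 and 228, 258 and 282 CPM with DMSO. All LGK-974 libraries were above all DMSO libraries. The means were 341 ± 35.8 and 256 ± 27.0 CPM (± SD, n = 3 libraries per group), with a fold change of 0.41 on the log2 scale (SE 0.189, unadjusted p = 0.0621, adjusted p = 0.369 by edgeR). It was 0.35 without DMSO replicate 1. Between 23.9 and 34.6% of the counts of Apoe in a library were assigned to a transcript annotated as non-coding, which shares sequence with the coding ones, so that only the sum over transcripts was compared.

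The nuclear receptors differed little. Nr1h3, the liver X receptor alpha gene of macrophages, lies on chromosome 2 from 91184061 to 91202834 on the minus strand and shares 34 exonic bases with Gm13783. Its level was 10.7, 12.3 and 7.94 CPM with LGK-974 and 6.59, 7.92 and 12.1 CPM with DMSO. The ranges of the groups were nearly the same, with a fitted log2 difference of 0.22 (SE 0.279, adjusted p = 0.702 by edgeR) that was 0.06 without DMSO replicate 1 and 0.62 without DMSO replicate 3. Pparg lies on chromosome 6 from 115360951 to 115490399 on the plus strand. It was at 6.25, 7.26 and 6.78 CPM with LGK-974 and 5.88, 6.43 and 7.29 CPM with DMSO. All 6 libraries fell within a narrow range, and the log2 fold change was 0.05 (SE 0.197, adjusted p = 0.914 by edgeR), with a sign that turned on counts scaled from TPM (−0.07) and without DMSO replicate 1 (−0.01).

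The long form of Pparg, whose first coding exon is shown above, was at 0.278, 0.0501 and 0 TPM with LGK-974 and at 0.239, 0 and 0 TPM with DMSO. It was thus listed at 0 in 3 of the 6 libraries. The more abundant transcript of the short coding form was at 1.34, 1.61 and 3.99 TPM with LGK-974 and 0.780, 1.75 and 2.08 TPM with DMSO. In each library this transcript exceeded the long form.

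**Figure D3:**
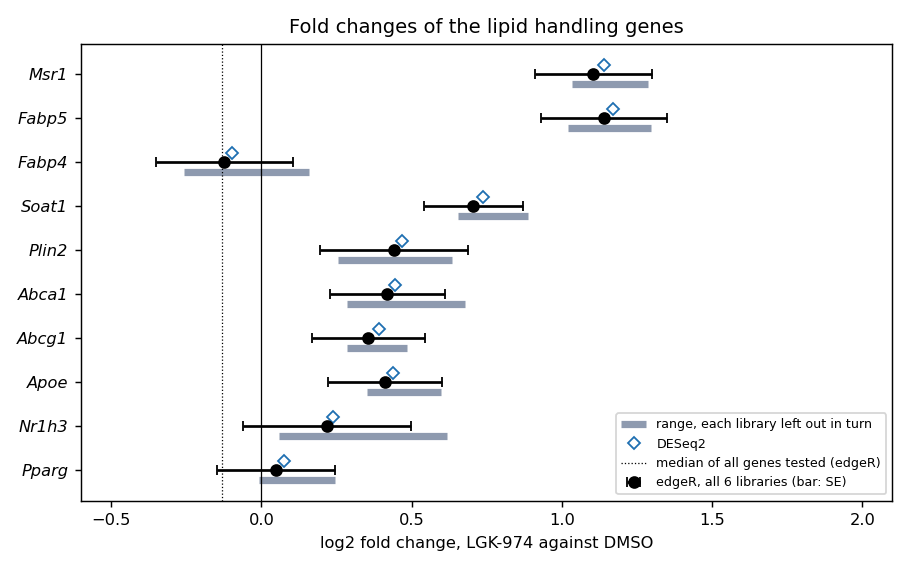
Log2 of LGK-974 over DMSO (horizontal axis) for each gene, from edgeR with its standard error (black), from DESeq2 (open diamonds) and as the range over fits that each leave out one library (grey bars). For Msr1 and Fabp5 both estimates and the grey ranges lie above 1, while the standard error bars reach below 1. Soat1 lies between 0.66 and 0.89 in the grey range, and the ranges of Fabp4 and Pparg include 0.

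The 18 macrophage markers were higher with LGK-974 as well. In log2 fold change, 18 of 18 were above 0 (median 0.85), and 13 had an unadjusted p under 0.05 in edgeR's test, all higher, with 0 at an adjusted p under 0.05. DESeq2 gave several of them an adjusted p under 0.05, against 1.23% of its genes. The smallest were those of Lyz2 (2.78e-04), Mpeg1 (0.00182) and Cd68 (0.00999). Others did not pass by DESeq2, such as Csf1r (0.0617) and Mertk (0.761). The summed level of the 18 markers was 760 to 923 CPM under LGK-974 and 348 to 521 CPM under DMSO, and no marker was at 0 in any library. The study also counted cells by flow cytometry, in whole hearts of other mice at the same time after injury. It reported fewer leukocytes, myeloid cells and inflammatory monocytes with LGK-974. For macrophages it described a trend without a significant difference. How these cell counts relate to the higher marker levels in the infarct area was not tested. In bulk tissue, more macrophages and more RNA of these marker genes per macrophage cannot be told apart. Each gene was therefore also read as a percentage of the summed CPM of these markers in the same library, a ratio that needs no scaling between libraries. At this group size, 3 and 3, the exact permutation test has a smallest possible p of 0.1.

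The marker sum itself was higher with LGK-974 by 0.95 on the log2 scale, so that a gene with the same CPM in both groups has a lower ratio. Over the 18460 genes with counts in all 6 libraries the ratio had a median log2 difference of −1.02 and was below 0 in 98.0% of genes. Of all genes tested, 68.7% were lower in this ratio without overlap between the groups and 0.0995% were higher without overlap. A lower ratio is therefore the background here, and the direction of a single gene says nothing particular to it. Values are given beside the share of the 18460 genes that had a lower log2 difference. Since all genes of a library are divided by the same sum, this share only restates the order of the genes by their CPM difference. It does not account for the amount of macrophages.

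Msr1 was at 5.46 ± 0.525% of the marker sum with LGK-974 and 4.92 ± 0.843% for DMSO (± SD, n = 3 libraries per group), a log2 difference of 0.16 (SE 0.165, exact two-sided permutation test p = 0.4). The groups overlapped, and 99.0% of genes had a lower difference. Fabp5 was at 3.46 ± 0.276% and 3.02 ± 0.0405% (± SD, n = 3 libraries per group), a log2 difference of 0.19 (SE 0.0660, exact permutation test p = 0.1), with all LGK-974 libraries above all DMSO libraries, and 99.1% of genes had a lower difference. The log2 difference of Soat1 was −0.26 (SE 0.157, exact permutation test p = 0.3) with overlapping groups, and −0.02 when gene TPM was used in place of counts. A lower difference was found in 95.0% of genes.

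Fabp4 was at 29.4, 30.7 and 19.5% of the marker sum with LGK-974 and at 52.9, 45.2 and 67.3% with DMSO. These groups did not overlap, as for most genes. The log2 difference of −1.06 (SE 0.266, exact permutation test p = 0.1) was close to the median of all genes, with 46.5% of genes below it. Pparg, at −0.90, was also near the median, with 60.1% of genes below it. Abcg1 and Abca1 had log2 differences of −0.60 and −0.52, and Apoe, Nr1h3 and Plin2 of −0.54, −0.71 and −0.49. Between 76.4% (Nr1h3) and 88.8% (Plin2) of genes had a lower difference than these 5. The groups did not overlap for Pparg, Abcg1 and Abca1 (exact permutation test p = 0.1 for each) and overlapped for Apoe, Nr1h3 and Plin2 (exact permutation test p = 0.2 for each). In all, 9 of the 10 genes, all but Fabp4, lay above the median of all genes, an order that the division by the marker sum cannot change.

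**Figure D4:**
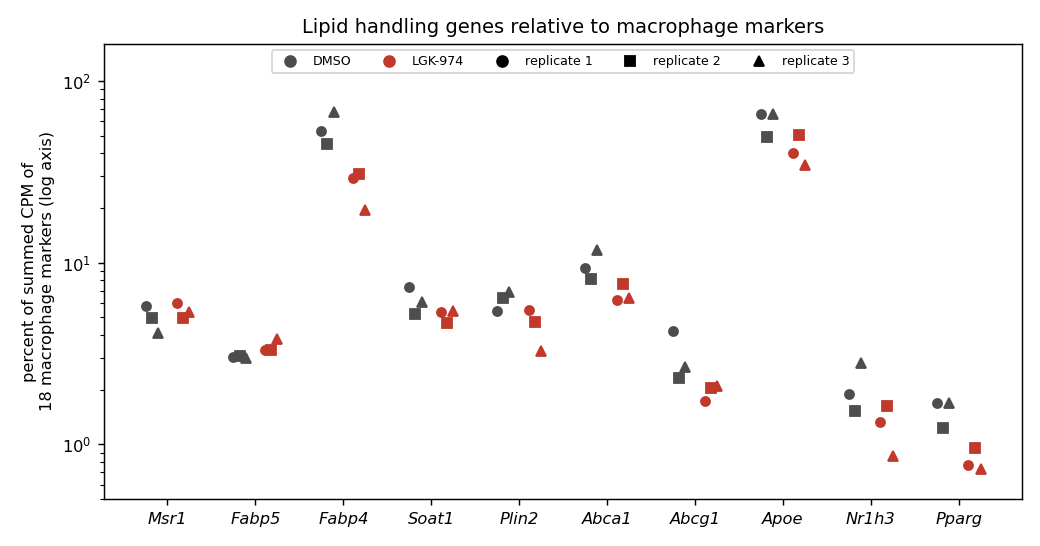
Level of each gene as a percentage of the summed CPM of 18 macrophage markers in the same library (vertical axis, logarithmic), with DMSO libraries in grey and LGK-974 libraries in red. Fabp4, Abca1, Abcg1 and Pparg are lower in all LGK-974 libraries than in all DMSO libraries, which held for 68.7% of all genes, and Fabp5 is slightly higher.

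Markers of other cells that use these genes were read from the same fit. Of 11 adipocyte markers 8 were tested, and all 8 were lower with LGK-974 in log2 fold change (2 with an unadjusted p under 0.05 by edgeR, Lipe and Thrsp). The summed level of the list was 15.2 to 23.3 CPM with LGK-974 and 32.7 to 38.5 CPM with DMSO. Lipe alone was at 8.89 to 15.0 CPM with LGK-974 and 18.7 to 23.9 CPM with DMSO. Of the 11, the 3 defining markers Adipoq, Cidec and Lep had a count of 0 in some library. Without DMSO replicate 1 the log2 fold changes of Lipe and Thrsp went from −0.78 and −0.70 to −0.84 and −0.59. Those of Car3, Adrb3 and Pck1 went from −0.90, −1.17 and −0.97 to −0.04, −0.23 and −0.23. That of Cfd went from −1.11 to −1.38. The highest group mean of Car3, Adrb3, Pck1 and Cfd was 1.45 CPM (Adrb3 with DMSO). Of 12 endothelial markers 7 were higher and 5 lower, 0 with an unadjusted p under 0.05 by edgeR, at 688 to 797 CPM in sum with LGK-974 and 583 to 844 CPM with DMSO. The log2 fold change was below 0 in 11 of 12 cardiomyocyte markers (median −0.46), and 1 had an unadjusted p under 0.05 by edgeR, Actc1, which was higher. All 10 fibroblast markers had a log2 fold change above 0 (median 0.54), with sums of 3263 to 5422 CPM against 1635 to 2403 CPM. The 4 at an unadjusted p under 0.05 by edgeR were Mfap5, Col3a1, Col1a2 and Col1a1. Pdgfra, Fbln1 and Dcn were at 0.13, 0.03 and 0.005, with overlapping groups. Without DMSO replicate 1 they were at 0.01, −0.12 and −0.11. Of 11 neutrophil markers 6 were tested, with 3 higher and 3 lower. The part of these cells in the levels of the 10 genes was not tested.

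Other genes of lipid uptake, storage, efflux and sterol synthesis were taken from lists that include the 10 genes. The share of all genes with an unadjusted p under 0.05 by edgeR was 6.26% higher and 7.18% lower, and 0 genes of any list passed an adjusted p of 0.05 by edgeR. In the list of lipid uptake, 5 of 17 genes were higher and 2 lower at an unadjusted p under 0.05. Slc27a1, a fatty acid transporter of muscle, was at 44.7 ± 13.0 CPM with LGK-974 against 78.8 ± 17.7 in controls (± SD, n = 3 libraries per group), without overlap. Scara5, a scavenger receptor that binds ferritin, was at 8.77 ± 3.61 and 17.6 ± 5.51 CPM (± SD, n = 3 libraries per group). The list thus held genes in both directions.

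In the list of lipid droplet storage, 3 of 19 tested genes were higher and 4 lower at an unadjusted p under 0.05 by edgeR, and the median log2 fold change was −0.33. Those lower included Plin5, a droplet protein of oxidative muscle (7.34 ± 2.12 CPM with LGK-974 against 12.9 ± 0.418, ± SD, n = 3 libraries per group), and Lipe, the hormone-sensitive lipase (12.3 ± 3.10 against 21.02 ± 2.66 CPM, ± SD, n = 3 libraries per group). Lipa, the lysosomal acid lipase that frees cholesterol from ingested lipoproteins, was higher, at 32.1 ± 1.90 CPM against 21.7 ± 4.36 (± SD, n = 3 libraries per group). Soat1 was the gene of this list with the smallest p-value, and Plin2 was one of those that did not pass.

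In the list of sterol efflux and carriers, 10 of 12 genes had a log2 fold change above 0, and 2 of them an unadjusted p under 0.05 by edgeR. These were Npc2, which binds cholesterol in the lysosome (49.7 ± 3.82 CPM with LGK-974 against 32.1 ± 4.29 in controls, ± SD, n = 3 libraries per group), and Ch25h, which makes an oxysterol (5.08 ± 1.65 and 2.83 ± 0.707 CPM, ± SD, n = 3 libraries per group). The next p-values of this list were those of Abca1, Apoe and Abcg1, and then of Apoc2, an activator of lipoprotein lipase, at 1.47 ± 0.127 and 0.709 ± 0.288 CPM (± SD, n = 3 libraries per group). Of 15 liver X receptor targets 11 were higher in log2 fold change (median 0.37), 4 of them with an unadjusted p under 0.05 by edgeR. The smallest p-values were those of Scd2, Arl4c and Scd1, with log2 fold changes of 0.90, 0.74 and 0.49 (SE 0.289, 0.252 and 0.198). Scd1 and Scd2 make monounsaturated fatty acids and are close paralogs, so their counts depend on how reads were divided.

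Of 22 genes of sterol synthesis 15 were higher in log2 fold change (median 0.36), with 7 higher and 0 lower at an unadjusted p under 0.05 by edgeR. Cyp51, a sterol demethylase, had a log2 fold change of 0.54 with an SE of 0.183, and its groups did not overlap. Among 10 lipid-sensing nuclear receptors and corepressors 5 were higher and 5 lower, and 1 had an unadjusted p under 0.05 by edgeR, Rxrg, a retinoid X receptor of muscle, which was lower (6.59 ± 1.91 against 10.9 ± 1.64 CPM, ± SD, n = 3 libraries per group). Ppara was lower by log2 fold change (−0.48, SE 0.310), with overlapping groups.

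Of 15 genes of lipid-associated macrophages, as they are known from fat tissue and plaques, 14 were higher in log2 fold change (median 0.56), with 9 higher and 0 lower at an unadjusted p under 0.05 by edgeR. Gpnmb, a lysosomal and surface glycoprotein of such cells, was at 66.3 ± 16.1 CPM with LGK-974 against 24.0 ± 9.90 in controls (± SD, n = 3 libraries per group). Its log2 fold change was 1.46 (SE 0.348), and 1.179 without DMSO replicate 1. Lgals3, galectin-3, was at 58.4 ± 3.28 and 25.5 ± 10.5 CPM (± SD, n = 3 libraries per group). Spp1 had the smallest p-value of this list, with a fitted log2 difference of 1.64 (SE 0.294). By DESeq2 the adjusted p was 1.77e-05 for Spp1, 0.00647 for Gpnmb and 0.0246 for Lgals3. In 11 of the 15 genes the groups did not overlap, all in the higher direction, against 10.7% of all genes tested. The groups overlapped for Trem2, Cd9 and Apoc1, with log2 fold changes of 0.34, 0.29 and 0.05 (SE 0.337, 0.169 and 0.999). They also overlapped for Lpl, the gene that was lower, at −0.64 (SE 0.413). Fabp5 and Apoe belong to this list.

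**Figure D5:**
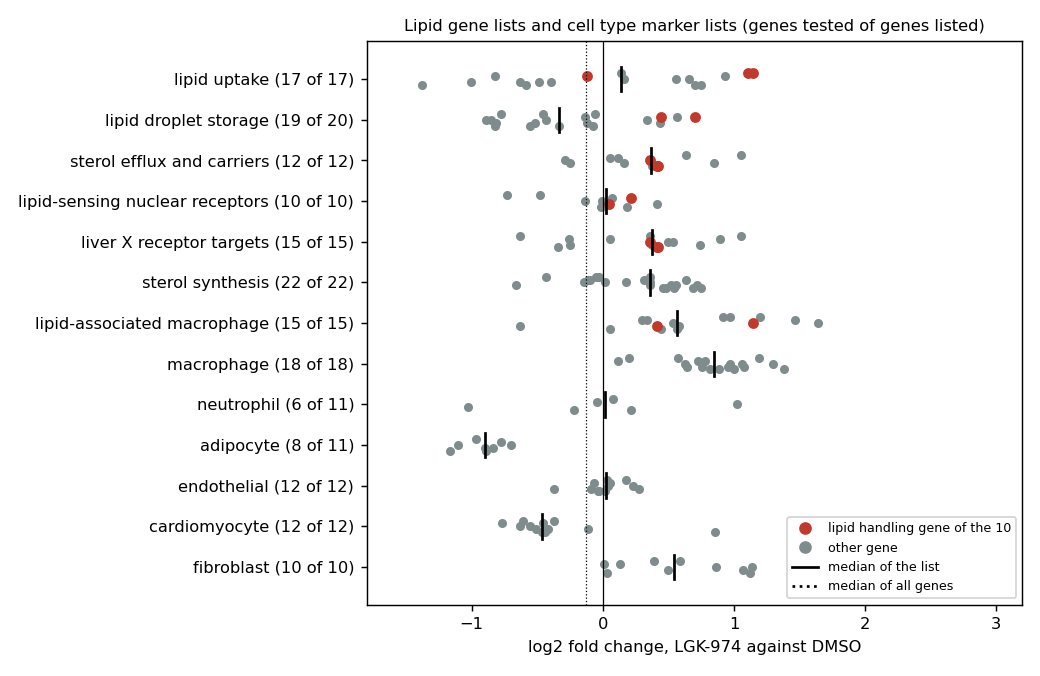
Log2 of LGK-974 over DMSO (horizontal axis) of each tested gene in 7 lists of lipid genes and 6 lists of cell type markers, with the 10 lipid handling genes in red, the median of each list as a black bar and the median of all genes tested, −0.13, as a dotted line. The macrophage list has the highest median, 0.85, and the adipocyte list the lowest, −0.90. Several adipocyte values, such as those of Car3 and Adrb3, rest on low levels and on DMSO replicate 1.

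Genes with the most similar pattern were found by the root mean square difference of log2 CPM, each gene centred on its own mean, over the 6 libraries and among 15524 other genes with a mean of at least 1 CPM. For Msr1 these were Ccl12, a chemokine for monocytes, Nek2 and C5ar1, the receptor of complement C5a, at distances of 0.0935, 0.116 and 0.117. For Fabp5 they were Cilp, Uck2 and H2-M3, at 0.0628 to 0.0660. Trmt2a and Snrpd1 were among the nearest to Soat1, at 0.0525 and 0.0584. For Apoe the nearest were Tmem60, Pros1 and Serpinb9, and for Abca1 Rbm22, Pepd and Ctu2, at 0.0332 to 0.0531 in both. Fabp4 was nearest to Adgrl4, an endothelial adhesion receptor, and to Nek7 and Phka2, at 0.0456 to 0.0611. Those of Abcg1 were Pole4, Timeless and Irgm1, those of Plin2 were Ifngr1, Medag and Slc38a2, those of Nr1h3 were Btd, Baiap2l1 and Ikzf5, and those of Pparg were Dnajc25, Akap10 and Fto. Within the set, Apoe and Abca1 were closest to each other, at 0.128, followed by Fabp5 and Msr1 at 0.178. The paralogs Fabp4 and Fabp5 were among the farthest apart, at 0.707, and Fabp4 and Msr1 were the farthest, at 0.708.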

How the data were processed

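RNA from infarct tissue was sequenced in 6 libraries after ribosomal RNA depletion and library preparation with the TrueSeq RNA Access kit. The authors quantified transcripts with Kallisto on Ensembl transcripts of GRCm38 and deposited, per library, estimated counts and TPM values of 118489 transcripts. The version of Kallisto and read trimming are not given in the sources used here. Of these transcripts, 98.6% were joined to genes through the GENCODE M21 annotation of GRCm38, and each gene's estimated counts were added up and rounded. Kallisto divides reads between similar transcripts, so values of close paralogs and of single transcripts are uncertain.

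Groups and replicate numbers came from the sample labels. Groups were compared by the quasi-likelihood test of edgeR 4.0.16 in R 4.3.3, with treatment as the single factor and TMM scaling, on the 20094 genes that reached 10 counts in 3 or more libraries. P-values were adjusted over all of them by Benjamini and Hochberg's method. CPM were computed on TMM-adjusted library sizes, and log2 CPM with a prior count of 2. DESeq2 1.42.0 and limma 3.58.1 were alternatives, and all 3 were tested on simulated data. Ratios to macrophage markers were compared by exact two-sided permutation tests over all 20 splits (SciPy 1.17.1). The small number of libraries limited the precision. Named genes were the 10 genes, up to 3 others with the smallest p-value in each lipid list and the 3 nearest genes of each. Some genes that this rule would name are not reported here. Actc1, the macrophage, fibroblast and adipocyte markers given by name, and Lpl, Trem2, Cd9 and Apoc1 were named after their values were seen. The genes and lists were chosen with earlier results of these data known.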

Additional observations from a re-analysis of the deposited data

How the results depend on the processing

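The count of the 10 genes with an adjusted p under 0.05 was 0 with edgeR and 2 with DESeq2 and without a filter on low counts, and over all genes these settings gave 289 and 1206 calls against 0. Without a filter, Msr1 and Fabp5 had adjusted p-values of 0.00263 and 0.00144. At an unadjusted p under 0.05, 5 of the 10 passed with limma-voom and with a filter on a mean CPM of at least 1 (against 9.70 and 16.0% of all genes), and 3 in the full data (13.4%). Over fits that each left out one library, the count at an unadjusted p under 0.05 was 3 to 4 (4.16 to 23.2% of all genes), the count of genes without overlap 6 to 8 (22.7 to 46.2%) against 5 in the full data, and the calls over all genes 0 to 2. The 8 was reached without DMSO replicate 3, where the share of all genes was also highest, and the 2 calls without DMSO replicate 1. The log2 fold change of Fabp4 was −0.26 to 0.16 over these fits and 0.038 with library size alone. That of Pparg was −0.0064 (without DMSO replicate 1) to 0.24, and −0.071 on counts scaled from TPM. With library size alone the median log2 fold change of all genes moved from −0.13 to 0.08. The directions of the other 8 genes did not turn in any of the 17 alternatives, one of which, without retained-intron transcripts, was chosen after seeing the data.

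Replicate numbers occur in both groups, but nothing in the labels ties them across groups, and same-numbered libraries did not all deviate together (correlations of 0.475, −0.0482 and 0.391). With the replicate block, 4 of the 10 genes had an unadjusted p under 0.05, against 16.5% of all genes, and 0 an adjusted one, against 0%, and the log2 fold changes of Msr1 and Fabp5 were 1.11 and 1.15. For the ratios to macrophage markers, an exact sign-flip test over the 3 pairs cannot go below p = 0.25, and gave 0.25 to 0.5.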
